A study of Homo sapiens with 39 samples.

Results

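The genes described here are 40 genes of mitosis and of the G2/M transition of the cell cycle. They were taken by name from a list made with earlier results of these data known, no measured value entered the rule, and all 40 were found among the 45435 gene rows of the tables. Their RNA levels were followed in 39 RNA-seq libraries of HCT116, an established human colorectal cancer cell line, in 13 groups of 3 libraries. The control group was the parental Flp-In T-REx host line, which carries no HNF4A construct. The other 12 groups were stable lines, each with a single inserted copy of an isoform (1 to 12) of hepatocyte nuclear factor 4 alpha (HNF4A), a nuclear receptor of liver and gut, fused to GFP at its C-terminus. All groups, the parental cells included, received 2.5 µg/ml doxycycline, the inducer of the construct, for 48 h. Selection antibiotics were absent during induction. Before it, all cells had been grown with 5 µg/ml blasticidin, the parental cells also with 100 µg/ml zeocin and the lines with 100 µg/ml hygromycin B. Each isoform is represented by 1 line and no group made GFP alone, so an effect of the isoform cannot be told apart from that of GFP, of the earlier antibiotic or of deriving the line. The labels do not say that the 3 libraries of a group came from separate cultures, so p-values measure the spread between these libraries, which may be technical.

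Cells prepare for division by a wave of transcription in G2. Cyclin B bound to the kinase CDK1 drives entry into mitosis, kinesins and spindle proteins build the spindle, the checkpoint holds the anaphase-promoting complex back until kinetochores are attached, and the RNAs fall again after division. Most genes of this wave are silenced in resting cells by the DREAM complex (the MuvB core with E2F4 and p130 or p107) and activated later by MuvB with B-MYB and the forkhead factor FOXM1. The MuvB core contacts a short promoter element, the cell cycle genes homology region (CHR, TTTGAA or the variant TTTAAA), usually below CCAAT boxes bound by NF-Y. The mRNAs are made by dividing cells, and in bulk RNA fewer cells in G2 or mitosis and less RNA per such cell cannot be told apart.

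The promoters show what these genes share in sequence. RefSeq promoters (GRCh38.p14, 250 bases before to 50 bases after the transcription start) were matched by symbol for 34 of the 40 genes. AURKA, BIRC5, FOXM1, TPX2, TTK and UBE2C were not matched. The windows below are the 120 bases before the RefSeq start of 6 genes that hold both elements. The GENCODE spans of these genes begin upstream of the RefSeq starts, so gene spans printed further below can overlap a window. The CHR nearest the start lies below the CCAAT boxes in 5 of them and between the boxes in CDC20. Capitals mark the CHR (TTTGAA or TTTAAA) and the CCAAT box (CCAAT or its reverse complement ATTGG).

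CCNB2 (chr15:59105026-59105145, + strand): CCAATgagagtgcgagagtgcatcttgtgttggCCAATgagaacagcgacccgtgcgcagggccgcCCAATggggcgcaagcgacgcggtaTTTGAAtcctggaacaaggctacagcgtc
CCNB1 (chr5:69167030-69167149, + strand): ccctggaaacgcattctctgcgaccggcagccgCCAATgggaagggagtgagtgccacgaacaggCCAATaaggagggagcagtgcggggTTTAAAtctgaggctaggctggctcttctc
PLK1 (chr16:23678769-23678888, + strand): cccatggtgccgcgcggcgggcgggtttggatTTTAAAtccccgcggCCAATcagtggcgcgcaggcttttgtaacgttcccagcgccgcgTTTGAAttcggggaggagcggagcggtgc
CDC20 (chr1:43358861-43358980, + strand): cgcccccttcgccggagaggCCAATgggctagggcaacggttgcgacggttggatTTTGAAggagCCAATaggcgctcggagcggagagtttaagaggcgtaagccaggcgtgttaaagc
KIF23 (chr15:69414229-69414348, + strand): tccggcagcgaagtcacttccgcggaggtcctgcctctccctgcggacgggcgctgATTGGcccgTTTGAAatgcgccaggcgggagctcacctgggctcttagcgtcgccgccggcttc
HMMR (chr5:163460512-163460631, + strand): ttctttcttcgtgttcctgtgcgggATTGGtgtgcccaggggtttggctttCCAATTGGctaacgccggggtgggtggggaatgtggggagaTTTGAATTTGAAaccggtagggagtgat

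In CCNB2 the CHR starts 29 bases before the transcription start, below CCAAT boxes at 54, 87 and 120 bases before it. CCNB1 has the variant TTTAAA at 30 bases before the start, and HMMR carries TTTGAA in tandem at 28 and 22 bases before it. Searched on both strands of the 300-base promoters, TTTGAA was found in 27 of the 41 promoters of the 34 genes (65.85%), against 15.16% of all 35116 RefSeq promoters. The variant TTTAAA, which reads the same on both strands, was found in 14 of the 41 (34.15%), against 12.24%. The CCAAT box was found in 31 (75.61%), against 34.61%. Either CHR form lay in the 60 bases before the start in 19 of the 41 promoters (46.34%), against 5.092%. CAAAGTC, the core of the direct repeat that HNF4A binds, was not among the letters of the 34 genes' windows and was in 3.375% of promoters. These matches are letters in a window and not measured binding, and these libraries hold no measure of binding.

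HNF4A RNA, summed over all its rows and so a check that a construct was expressed but not of which isoform, was at 31.5 TPM ± 0.59 (SD, n = 3) in parental cells and between 614 and 1071 TPM in the means of the 12 lines. TPM are transcript abundances scaled for gene length and to the same total in each library, so depth per library is unknown and no counting interval can be given. In isoform 3, replicate 1 had 406.9 TPM of HNF4A and stood apart from the other libraries of that line at 833.5 and 771.8 TPM. Epithelial keratins and adhesion genes were abundant. The summed level of the epithelial markers was 3208 to 3335 TPM in a parental library and 5339 to 5850 TPM in an isoform 1 library. Of 7 such markers tested, 7, 5, 6, 4 and 6 rose in isoforms 1, 2, 7, 8 and 11, while 2 rose and 3 fell in isoform 10. In each of isoforms 2 and 8, 1 fell. In isoforms 3, 4, 5, 6, 9 and 12, in that order, 3, 2, 1, 0, 3 and 0 rose and 1, 2, 3, 5, 2 and 3 fell. The summed level of 7 fibroblast markers was 8.78 to 16.9 TPM over the 39 libraries, nearly all of it COL1A1, with DCN, LUM and COL1A2 at or below 0.0925 TPM. That of 5 endothelial markers was 1.71 to 6.96 TPM, nearly all of it PECAM1, with CDH5 at or below 0.133 TPM and TEK at or below 0.062 TPM. PECAM1 rose by 1.02, 0.63, 0.50, 0.48 and 0.66 on the log2 scale in isoforms 1, 2, 7, 8 and 11, and fell by 0.42 and 0.44 in isoforms 5 and 6. The part of these marker genes in the results below was not tested. The 6 leukocyte markers summed to 1.46 to 2.82 TPM, with PTPRC at or below 0.296 TPM and CD3E at or below 0.0549 TPM.

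All 40 genes were expressed well above the filter of 1 TPM, with means over the 39 libraries from 14.98 to 270.0 TPM, so none was chosen through the group where it is high. Values were tested on the log2(TPM + 1) scale with limma over 15003 genes, and a gene is said to have fallen or risen where its Benjamini-Hochberg adjusted p was under 0.05, whatever the size. The mean log2(TPM + 1) over the 40 genes summarises each library and is given as a description, without a test. It was 6.433, 6.532 and 6.482 in the parental libraries. In isoform 1 it was 5.710, 5.912 and 5.704, below every other library of the study. The next groups from the lowest were isoform 2 (5.987 to 6.130), isoform 10 (5.966 to 6.189), isoform 11 (6.121 to 6.259), isoform 3 (6.200 to 6.359) and isoform 7 (6.232 to 6.358). These neighbours overlap from isoform 2 to isoform 10, from 10 to 11, from 11 to 3 and from 3 to 7. Isoforms 4, 8, 5, 12, 9 and 6 followed, with group means of 6.311, 6.340, 6.344, 6.406, 6.430 and 6.434, and each of these overlapped its neighbour in this order. Isoforms 6, 9 and 12 reached into the range of the parental libraries. Expressed as summed abundance, the 40 genes made up 4384 to 4670 TPM of a parental library and 2608 to 3038 TPM of an isoform 1 library.

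**Figure D1:**
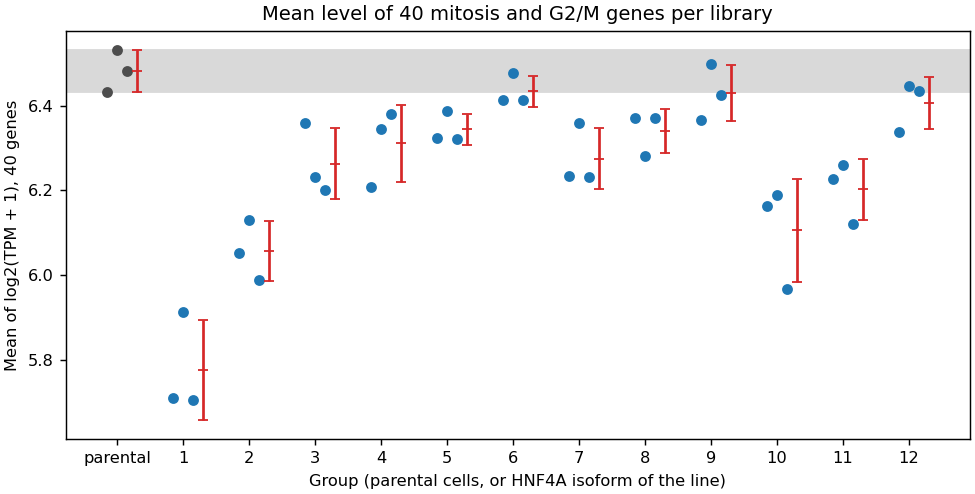
Mean log2(TPM + 1) of the 40 genes in each library, by group, with the mean and SD of the 3 libraries in red and the range of the parental libraries as a grey band. The 3 isoform 1 libraries lie between 5.704 and 5.912, below all others, and isoforms 6, 9 and 12 each have a library inside the parental band (6.433 to 6.532).

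Among the lines, the level of HNF4A RNA went with this order in part. Isoforms 2, 10, 11 and 3, next above isoform 1, had HNF4A means of 613.6, 661.3, 613.9 and 670.7 TPM. Isoforms 7, 4, 8 and 5 had 732.6, 855.7, 733.7 and 852.2 TPM. Isoforms 9 and 6, nearest the parental cells, had 948.4 and 1071 TPM. Isoform 12, with 677.7 TPM, departed from it, as did isoform 1. The HNF4A mean of isoform 3 was low through replicate 1, at 406.9 TPM, beside 833.5 and 771.8 TPM in its other libraries. That replicate had the highest mean of the 40 genes in its line, 6.359, beside 6.231 and 6.200. A relation of the HNF4A level to the 40 genes was not tested. Isoform 6 had the highest HNF4A mean, 1071 TPM ± 41.3 (SD, n = 3), beside a gene set mean 0.048 below the parental one. Isoform 1 had 782.4 TPM ± 21.2 (SD, n = 3) and a gene set mean 0.707 below. Isoform 2, with 613.6 TPM ± 39.2 (SD, n = 3), had the lowest HNF4A mean and the second lowest mean of the 40 genes.

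Against the parental cells, no gene of the 40 rose with limma in any of the 12 lines, and the number that fell ranged from 39 in isoform 1 to 0 in isoforms 6 and 9. Under median-of-ratios scaling 1 gene rose in each of isoforms 3, 6, 7 and 8, and the authors' deposited tables have AURKA, CDK1, NUF2, PRC1 or MKI67 as higher in some lines. Of all genes tested, the share that rose in isoforms 1 to 12 was, in that order, 19.8%, 19.7%, 11.2%, 6.26%, 9.57%, 5.94%, 13.4%, 16.9%, 10.9%, 17.0%, 14.5% and 7.92%. In isoform 1, 39 of 40 fell, where 38.7% of all genes tested fell. The median log2 fold change of the 40 was -0.71, against -0.11 over all genes, and 38 of them fell by at least 0.5 on the log2 scale, a size reached by 12.7% of all genes. A fall of at least 1 was reached by 1 of the 40 and by 1.78% of all genes. In 39 genes every isoform 1 library lay below every parental library, a pattern found in 42.8% of all genes. Isoform 2 had 38 lower genes (35.6% of all genes fell), with a median of -0.41 against -0.09, and 11 of them fell by at least 0.5 (9.73% of all genes). Isoform 10 had 35 lower genes (20.4%), with a median of -0.39 against -0.02, and 6 fell by at least 0.5 (3.43%). Isoform 11 also had 35 (24.0%), with a median of -0.28 against -0.06, and 2 fell by at least 0.5 (5.01%). Under median-of-ratios scaling, 30, 7, 4 and 1 fell by at least 0.5 in isoforms 1, 2, 10 and 11. The share of all genes at that size was not counted under this scaling. The isoform 1 median was then -0.60, against -0.01 over all genes.

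The other lines had smaller differences. In isoform 7, 27 genes fell (26.2% of all genes), with a median of -0.23. Isoform 3 had 23 lower genes (14.7%) and a median of -0.21. This line's count depended on single libraries: it was 29 without its replicate 1, the library low in HNF4A, 10 without replicate 2 and 8 without replicate 3, and 10 and 14 without parental replicates 2 and 3. Isoform 8 had 15 lower genes (17.5%) and a median of -0.16, and the count was 6 without parental replicate 2 or its own replicate 2 and 9 without its own replicate 3. Isoform 7 dropped to 15 without parental replicate 2 and to 16 without its own replicate 3, and to 16 lower and 1 higher under median-of-ratios scaling.

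Isoform 4 had 13 lower genes (10.1%) and a median of -0.17, with 1 gene, ASPM, lower by at least 0.5 (1.67%). The count was 4 without parental replicate 2 or without its library a, and 8 without parental replicate 3. Isoform 5 had 9 (5.22%) and a median of -0.15, but 15 under median-of-ratios scaling and none without parental replicate 2 or without its library a. Leaving out library c of isoform 5 or parental replicates 1 or 3 gave 1, 5 and 4. Isoform 12 had 1 lower gene (6.65%), HMMR, the hyaluronan-mediated motility receptor that binds spindle microtubules, and none without its own replicate 1 or parental replicate 2 or 3.

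In isoform 6 no gene passed the test with limma (4.13% of all genes fell and 5.94% rose), and 4 genes had an unadjusted p under 0.05, of which 3 were lower, where 23.15% of all genes had one. With the other tools and settings isoform 6 had 2 under median-of-ratios scaling, 1 without parental replicate 1 and 1 in a fit of that line and the parental cells alone. In the authors' deposited table for isoform 6, 4 of the genes were lower and 2 higher. In isoform 9 none passed with limma (11.8% fell and 10.9% rose), 4 had an unadjusted p under 0.05, all lower, against 33.6% of all genes, and the authors' deposited table gave 1 lower and 1 higher. The number of genes of which every library of the line lay below every parental library was 38, 35, 35 and 30 in isoforms 2, 10, 11 and 7 (41.0%, 28.6%, 31.4% and 31.7% of all genes). It was 26, 26, 25 and 24 in isoforms 3, 4, 5 and 8, where the share over all genes was not counted. For isoforms 6, 9 and 12, the lines with the fewest genes past the test, it was 10, 3 and 14 (15.9%, 17.1% and 17.6%), in isoform 9 a smaller share of the 40 than of all genes.

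The largest standard error of any of these fold changes was 0.12 on the log2 scale, which limits what could be detected in a single gene.

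**Figure D2:**
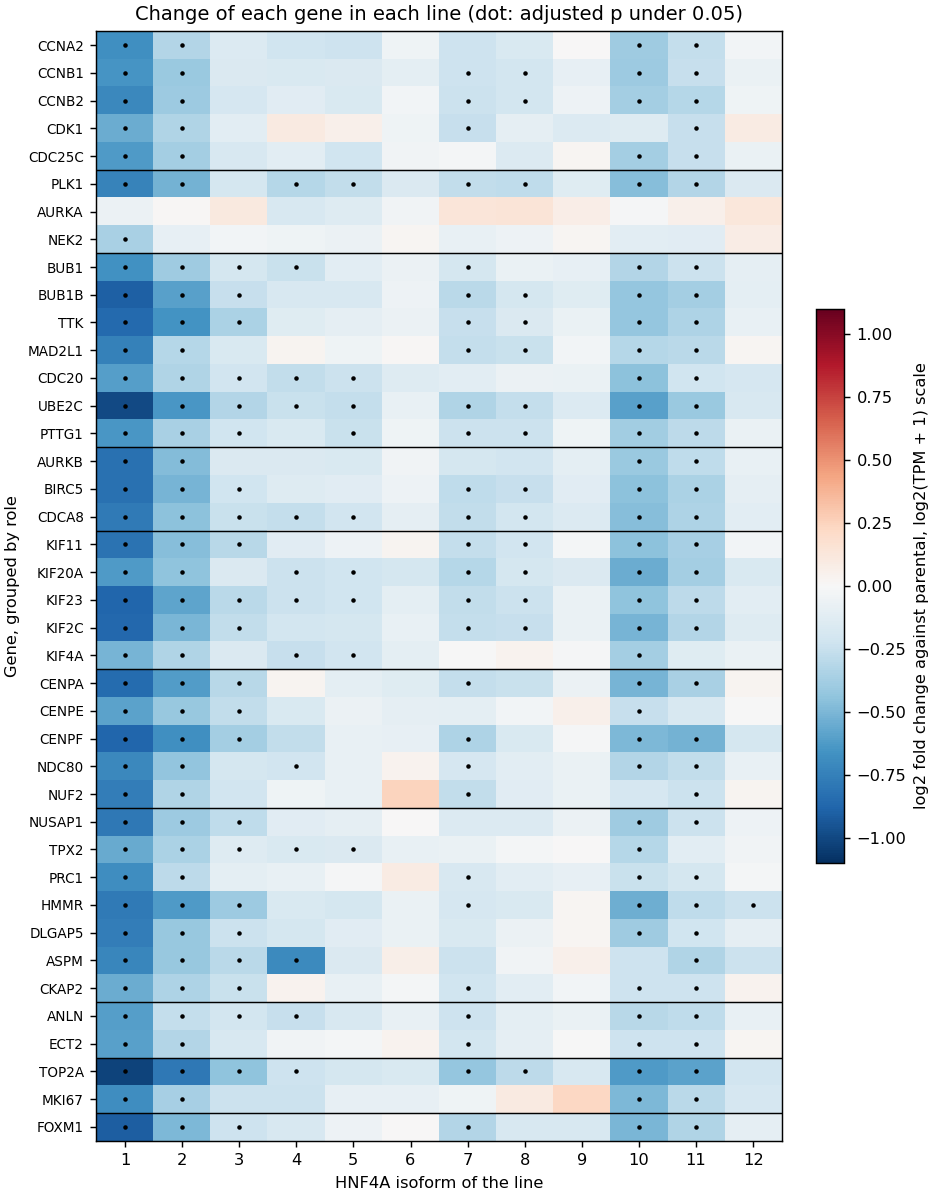
Log2 fold change on the log2(TPM + 1) scale of each of the 40 genes (rows, grouped by role) in each of the 12 isoform lines (columns) against the parental cells, with a dot where the limma adjusted p was under 0.05. The columns of isoforms 1, 2, 10 and 11 hold values below 0 in 40, 39, 40 and 39 rows, with 39, 38, 35 and 35 dots, AURKA has no dot in any line, and ASPM stands alone in isoform 4.

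**Figure D3:**
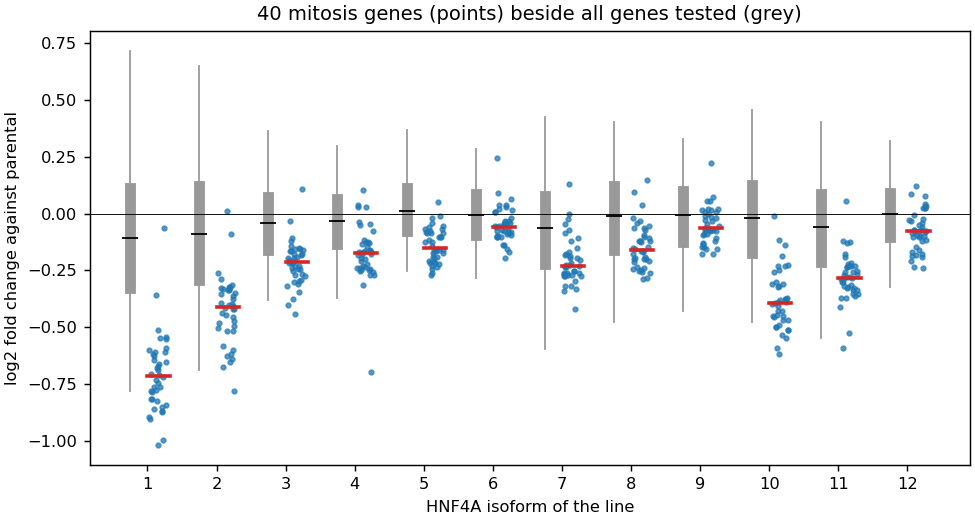
Log2 fold change against parental of the 40 genes (blue points, red line at their median) beside all 15003 genes tested (grey bar from the first to the third quartile, thin line from the 5th to the 95th percentile, black mark at the median), by isoform line. In isoform 1 the median of the 40 is -0.71 and that of all genes -0.11, and in isoforms 6 and 9 the medians of the 40 are -0.06 and -0.07.

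The widest range belonged to TOP2A, DNA topoisomerase II alpha, which untangles sister chromatids (chromosome 17, 40388516 to 40417950, minus strand, GRCh38). It was at 108, 118 and 116 TPM in the parental libraries. In isoform 1 it was at 52.0, 63.3 and 52.9 TPM, in isoform 2 at 63.5, 71.1 and 63.5 TPM, and in isoform 3 at 89.7, 81.2 and 80.3 TPM. In isoform 10 it was at 77.8, 76.3 and 68.1 TPM and in isoform 11 at 78.4, 81.9 and 67.0 TPM. These 15 library values of the 5 lines were all below the parental ones. Isoform 7 had 79.9, 90.4 and 84.8 TPM and isoform 8 had 95.5, 88.0 and 96.5 TPM. Isoforms 4, 5 and 6 had 89.7, 101 and 101 TPM, 98.0, 102 and 98.2 TPM, and 102, 104 and 97.7 TPM. Isoform 9 had 92.7, 102 and 108 TPM and isoform 12 had 90.4, 103 and 103 TPM. Except for the highest isoform 9 library, which equalled the lowest parental one to 3 digits, every line's libraries lay below the parental cells. TOP2A fell by 1.02 ± 0.08 on the log2 scale (SE, limma adjusted p = 2.2e-12) in isoform 1, the only change of at least 1 among the 40 genes in any line. That change was between -1.11 and -0.97 with single libraries left out, and -0.91 under median-of-ratios scaling. It fell by 0.78 in isoform 2, by 0.62 in isoform 10 and by 0.59 in isoform 11, and in isoforms 3, 4, 7 and 8 by 0.44, 0.23, 0.42 and 0.29.

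The anaphase-promoting complex and the spindle checkpoint formed a role group of 7 genes: the kinases BUB1 and TTK, the checkpoint proteins BUB1B and MAD2L1, the activator CDC20, the ubiquitin-conjugating enzyme UBE2C, which serves the complex, and securin, PTTG1, one of its substrates. All 7 fell in isoforms 1, 2, 10 and 11, with medians of -0.74, -0.39, -0.43 and -0.30. In isoforms 3 and 7 it was 6, in isoform 8 it was 5, in isoforms 4 and 5 it was 3 each, and in isoforms 6, 9 and 12 none passed with limma. The authors' deposited tables have CDC20 as lower in isoforms 6 and 12 and UBE2C as lower in isoform 12. UBE2C (chromosome 20, 45812576 to 45816957) was the most changed of them. The parental libraries had 318, 337 and 314 TPM, isoform 1 had 155, 179.8 and 151 TPM, and isoform 2 had 202, 219 and 201 TPM. Isoform 10 had 218, 227 and 197 TPM and isoform 11 had 245, 249.6 and 234 TPM, again with no overlap with the parental cells. Isoform 3 had 308, 249.7 and 226 TPM, its replicate 1 close to the parental range. UBE2C was at 255, 281 and 284 TPM in isoform 4, at 261, 284 and 265 TPM in isoform 5, and at 292, 313 and 312 TPM in isoform 6. It was at 261, 272 and 236 TPM in isoform 7, at 271, 264 and 273 TPM in isoform 8, at 282, 318 and 273 TPM in isoform 9, and at 285, 294 and 276 TPM in isoform 12. Of these 7 lines only isoform 9 reached the parental range. UBE2C passed the test in 9 of the 12 lines, as did KIF23 and CDCA8, and fell by 0.997 ± 0.08 (SE, limma adjusted p = 4.7e-12) in isoform 1.

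BUB1B, the checkpoint protein BubR1 (chromosome 15, 40161023 to 40221136), gave 91.5, 102 and 94.2 TPM in the parental cells, against 48.6, 55.9 and 48.9 TPM in isoform 1. In isoforms 2, 10 and 11 its values were 62.7, 65.0 and 60.8 TPM, 73.4, 73.6 and 66.1 TPM, and 76.0, 77.7 and 67.9 TPM. These lines did not overlap the parental cells. The remaining values were 87.9, 79.4 and 74.2 TPM in isoform 3, 77.4, 87.8 and 88.8 TPM in isoform 4, 81.9, 89.3 and 83.5 TPM in isoform 5, and 91.1, 94.8 and 91.0 TPM in isoform 6. For isoforms 7, 8, 9 and 12 they were 73.9, 83.8 and 76.2 TPM, 84.9, 81.3 and 85.2 TPM, 83.8, 93.5 and 85.5 TPM, and 85.1, 92.1 and 90.3 TPM. Isoforms 6, 9 and 12 each overlapped the parental libraries. BUB1B fell by 0.90 in isoform 1 (limma adjusted p = 1.2e-12) and passed the test in 7 lines.

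The cyclin-CDK switch comprised cyclins A2, B1 and B2, CDK1 and its activating phosphatase CDC25C. All 5 fell in isoforms 1, 2 and 11, with medians of -0.65, -0.37 and -0.26, and 4 fell in isoform 10, 3 in isoform 7 and 2 in isoform 8. With limma none of the 5 fell in isoforms 3, 4, 5, 6, 9 and 12, whereas the authors' deposited tables have CCNB1 and CCNB2 as lower in isoform 3 and all but CDK1 as lower in isoform 5. CCNB1, cyclin B1 (chromosome 5, 69167010 to 69178245), whose promoter window is printed above, was at 275, 290.2 and 278 TPM in the parental libraries. It was at 171, 198 and 168 TPM in isoform 1, at 208, 225 and 204 TPM in isoform 2, and at 278, 245 and 232 TPM in isoform 3. Isoforms 1 and 2 did not overlap the parental cells and isoform 3 did. The values were 225, 257 and 271 TPM in isoform 4, 243, 264 and 248 TPM in isoform 5, and 253, 270.1 and 261 TPM in isoform 6. They were 235, 261 and 226 TPM in isoform 7, 255, 236 and 244 TPM in isoform 8, and 252, 288 and 253 TPM in isoform 9. They were 218, 231 and 192 TPM in isoform 10, 232, 244 and 232 TPM in isoform 11, and 260.1, 269 and 272 TPM in isoform 12. Only isoforms 3 and 9 had a library inside the parental range. CCNB1 fell by 0.65 ± 0.07 in isoform 1 (SE, limma adjusted p = 7.4e-09), by 0.40 in isoforms 2 and 10, by 0.25 in isoform 11, by 0.23 in isoform 7 and by 0.20 in isoform 8.

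CDK1 (chromosome 10, 60778331 to 60794852) was less uniform than its cyclin. It was at 205, 223 and 198 TPM in the parental libraries, at 128, 166 and 136 TPM in isoform 1, and at 172, 177 and 148 TPM in isoform 2. It was at 177, 186 and 162 TPM in isoform 7 and at 172, 182 and 169.6 TPM in isoform 11. In these 4 lines CDK1 fell, by 0.54, 0.33, 0.25 and 0.26, and no library overlapped the parental ones. Isoform 10 had 201, 202 and 167 TPM, inside the parental range in 2 of 3 libraries, with a log2 fold change of -0.14 (limma adjusted p = 0.19). Isoforms 3, 8 and 9 had 192, 185 and 198 TPM, 204, 181 and 197 TPM, and 183, 198 and 184 TPM. Isoforms 4, 5, 6 and 12 had 202, 233 and 238 TPM, 208, 223 and 218 TPM, 204, 209 and 192 TPM, and 209, 234 and 222 TPM. CDK1's log2 fold changes in isoforms 4 and 12 were 0.10 and 0.09 and did not pass the limma test. The authors' deposited table for isoform 4 has CDK1 as higher.

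The chromosomal passenger complex, which corrects faulty spindle attachments, was represented by the kinase AURKB, survivin (BIRC5) and borealin (CDCA8). All 3 fell in isoforms 1, 2, 10 and 11, with medians of -0.82, -0.48, -0.45 and -0.34. In isoforms 3, 7 and 8, BIRC5 and CDCA8 fell, and in isoforms 4 and 5 CDCA8 fell by 0.26 and 0.21.

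The kinetochore and centromere group held the centromeric histone CENPA, the motor CENPE, CENPF and the Ndc80 complex subunits NDC80 and NUF2. All 5 fell in isoforms 1 and 2 (medians -0.76 and -0.44), and 4 each in isoforms 7, 10 and 11. CENPF fell by 0.87 in isoform 1, by 0.67 in isoform 2, by 0.52 in isoform 11 and by 0.49 in isoform 10. NUF2 (chromosome 1, 163266576 to 163355764) departed from its complex partner in isoform 6. The parental libraries had 57.0, 62.5 and 60.5 TPM and isoform 6 had 69.0, 73.2 and 71.3 TPM, above all of them. The log2 fold change was 0.24 ± 0.08 (SE, limma adjusted p = 0.059), which did not pass, while it passed under median-of-ratios scaling, at 0.25, and NUF2 is higher in the authors' deposited table for isoform 6. In isoform 1 NUF2 was at 32.2, 39.5 and 33.5 TPM, and in isoform 2 at 46.7, 50.8 and 44.7 TPM, both below all parental libraries. In isoforms 3, 7 and 11 it was at 50.5, 52.5 and 51.7 TPM, 47.4, 56.0 and 45.5 TPM, and 50.5, 52.1 and 49.9 TPM. These lines too lay below the parental range. In isoforms 4, 5 and 8 it was at 51.8, 59.0 and 64.0 TPM, 54.5, 58.7 and 57.1 TPM, and 58.9, 51.2 and 54.9 TPM. Isoforms 9, 10 and 12 had 54.8, 60.4 and 55.7 TPM, 54.7, 57.2 and 46.7 TPM, and 55.2, 62.7 and 65.8 TPM. All 6 of these lines overlapped the parental libraries.

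Kinesin motors of the spindle and midzone (KIF11, KIF20A, KIF23, KIF2C and KIF4A) fell together in isoforms 1, 2 and 10, 5 of 5 each, with medians of -0.81, -0.47 and -0.45. KIF20A, needed for cytokinesis, fell by 0.55 in isoform 10. KIF4A, the chromokinesin, did not pass in isoforms 7, 8 and 11, where the other 4 motors fell. The spindle and midzone proteins NUSAP1, TPX2, PRC1, HMMR, DLGAP5, ASPM and CKAP2 fell in isoforms 1 and 2, 7 of 7 each (medians -0.72 and -0.40), and 6 of 7 in isoforms 3, 10 and 11. ANLN and ECT2, the scaffold and the exchange factor of the cleavage furrow, both fell in isoforms 1, 2, 7, 10 and 11.

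Among the kinases of centrosome and mitotic entry, PLK1 (chromosome 16, 23677656 to 23690367) fell in 8 lines. The parental libraries had 152, 162 and 148 TPM, isoform 1 had 91.8, 102 and 84.0 TPM, isoform 2 had 105, 112 and 105 TPM, and isoform 10 had 116, 117 and 101 TPM. The values of isoforms 3, 4, 5 and 6 were 152, 135 and 119 TPM, 112, 129.9 and 130.3 TPM, 122, 134 and 126 TPM, and 130.3, 141 and 142 TPM. The values of isoforms 7, 8, 9, 11 and 12 were 126, 136 and 121 TPM, 131, 122 and 125 TPM, 133, 152 and 137 TPM, 127, 125 and 117 TPM, and 137, 141 and 135 TPM. Only isoforms 3 and 9 had a library within the parental range. PLK1 fell by 0.73 in isoform 1 (limma adjusted p = 1.2e-09) and by 0.27 to 0.52 in isoforms 2, 4, 5, 7, 8, 10 and 11.

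AURKA and NEK2, singled out after their values were seen, fell in 0 and 1 of the 12 lines, where each of the other 38 genes fell in at least 4. AURKA, the kinase that matures centrosomes (chromosome 20, 56369389 to 56392337), was at 101, 109 and 100.1 TPM in the parental libraries. Isoform 1 had 91.8, 107.5 and 97.5 TPM and isoform 10 had 105, 107.5 and 95.6 TPM. These groups overlap, and the log2 fold change in isoform 1 was -0.07 ± 0.06 (SE, limma adjusted p = 0.40). Isoform 8 had 120.3, 109 and 114 TPM, above all parental libraries, and isoform 4 had 80.8, 91.8 and 102 TPM, the lowest group mean. AURKA passed the limma test in no line, at fold changes from -0.18 in isoform 4 to 0.15 in isoform 8, and its sign in isoform 1 turned to 0.05 under median-of-ratios scaling, where it rose in 3 lines. In the authors' deposited tables AURKA is higher in isoforms 2, 3, 7, 8, 11 and 12 (log2 fold changes of 0.13 to 0.23) and lower in isoform 5 (-0.16). NEK2, which separates centrosomes, passed in 1 line only, isoform 1, with 58.6, 63.5 and 58.6 TPM against 75.1, 79.6 and 77.9 TPM in the parental libraries. This was a log2 fold change of -0.36 (limma adjusted p = 9.8e-06), smaller than that of the other 38 genes in that line.

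FOXM1, the transcription factor of the set (chromosome 12, 2857681 to 2877155), was at 81.3, 83.9 and 82.2 TPM in the parental libraries. It was at 42.9, 48.7 and 39.6 TPM in isoform 1, at 59.4, 62.0 and 53.8 TPM in isoform 2, at 60.01, 60.9 and 53.6 TPM in isoform 10, and at 71.2, 66.0 and 59.8 TPM in isoform 11. None of these libraries reached the parental range. FOXM1 was at 79.8, 69.5 and 62.4 TPM in isoform 3, at 62.2, 71.1 and 64.6 TPM in isoform 7, and at 74.4, 70.0 and 73.8 TPM in isoform 8. It was at 69.9, 74.6 and 74.2 TPM in isoform 4, at 80.0, 81.0 and 76.8 TPM in isoform 5, and at 82.1, 84.4 and 82.1 TPM in isoform 6. It was at 72.6, 77.0 and 68.9 TPM in isoform 9 and at 75.1, 78.0 and 78.4 TPM in isoform 12. Only isoform 6 overlapped the parental libraries, and FOXM1 fell in 6 lines: by 0.90 in isoform 1 (limma adjusted p = 8.4e-12), by 0.49 in isoform 2, by 0.50 in isoform 10, by 0.33 in isoform 11, by 0.32 in isoform 7 and by 0.23 in isoform 3.

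MKI67, the proliferation marker Ki-67 (chromosome 10, 128096659 to 128126385), fell in 4 lines, and in 3 under median-of-ratios scaling. The parental libraries had 70.9, 70.5 and 78.6 TPM. Isoform 1 had 44.7, 52.6 and 39.5 TPM, isoform 2 had 59.3, 59.8 and 51.4 TPM, and isoform 10 had 57.4, 49.3 and 48.4 TPM, all below the parental libraries. Isoform 11 was spread widely, at 70.6, 63.2 and 46.7 TPM. Isoform 9 had 83.6, 76.2 and 98.8 TPM, isoform 8 had 76.5, 70.1 and 89.8 TPM, and isoform 7 had 63.2, 68.7 and 82.4 TPM, and all 3 overlapped the parental cells. Isoforms 3, 4 and 12 had 66.4, 61.0 and 59.4 TPM, 64.2, 61.8 and 59.99 TPM, and 61.0, 67.9 and 64.7 TPM, below the parental libraries. Isoforms 5 and 6 had 73.3, 69.8 and 64.0 TPM, and 69.4, 69.9 and 66.4 TPM. MKI67 fell by 0.68 in isoform 1, by 0.36 in isoform 2, by 0.50 in isoform 10 and by 0.30 in isoform 11. In isoform 9 its log2 fold change was 0.22 ± 0.12 (SE, limma adjusted p = 0.18). It is higher in the authors' deposited table for isoform 9. In the authors' deposited table for isoform 11 its log2 fold change is -0.18, with an adjusted p of 0.391.

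ASPM, a spindle pole protein of mitosis (chromosome 1, 197084128 to 197146694), stood apart in isoform 4 and was singled out after its values were seen. The parental libraries had 26.8, 31.6 and 31.3 TPM and isoform 4 had 17.6, 19.5 and 17.0 TPM, as low as the 16.6, 20.4 and 16.5 TPM of isoform 1. In isoforms 5 and 6 it was at 27.4, 26.5 and 25.9 TPM and at 32.8, 33.0 and 28.2 TPM, overlapping the parental libraries. ASPM fell by 0.70 ± 0.11 in isoform 4 (SE, limma adjusted p = 2.4e-05), between -0.77 and -0.66 with single libraries left out. The next largest falls in that line were 0.31 (PLK1) and 0.27 (CDC20). The spread was wide in other lines, as in isoform 12 with 21.4, 27.2 and 27.2 TPM.

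**Figure D4:**
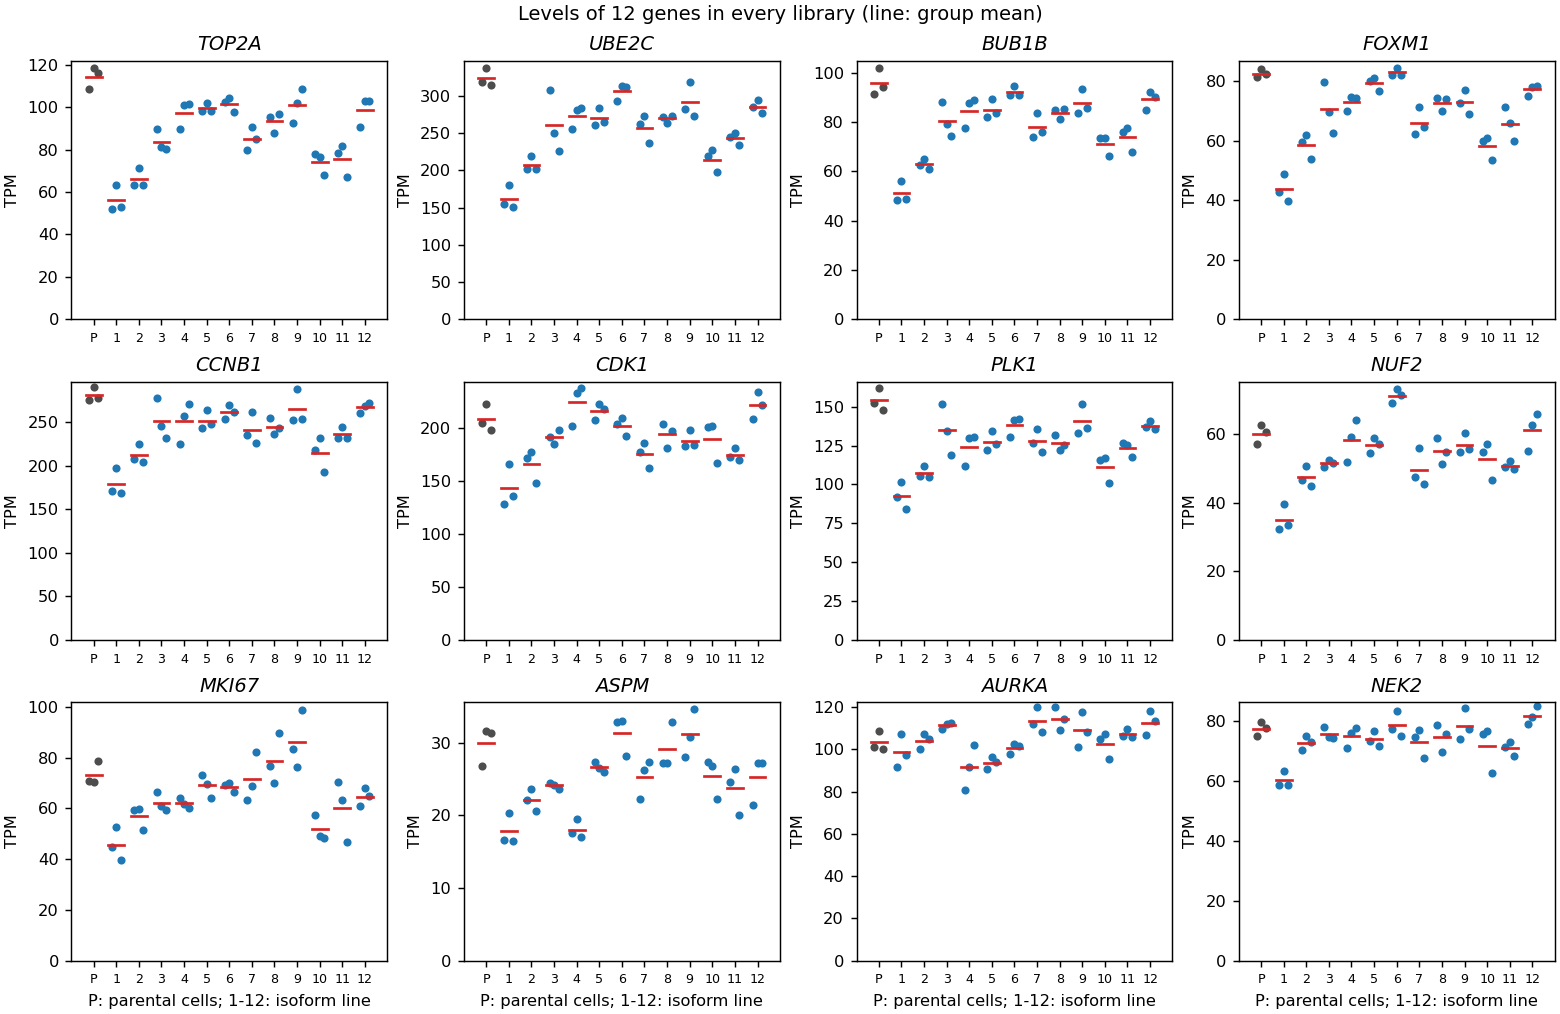
TPM of 12 genes in every library of the 13 groups (P, parental cells; 1 to 12, isoform lines; points are libraries and red lines group means). TOP2A, UBE2C, BUB1B and FOXM1 are lowest in isoform 1 (TOP2A 52.0 to 63.3 TPM against 108 to 118 TPM in parental cells), NUF2 is highest in isoform 6, ASPM is low in isoforms 1 and 4, and AURKA overlaps the parental cells in isoform 1.

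Over the 40 genes, isoform 1 was the group with the lowest mean in 39, the exception being AURKA, lowest in isoform 4. Isoform 2 was the next lowest in 27 genes and isoform 10 in 10. The parental cells were highest in 18 genes, isoform 6 in 8 and isoform 9 in 7. UBE2C, KIF23 and CDCA8 fell in 9 lines, TOP2A, PLK1, PTTG1 and KIF20A in 8, another 9 genes in 7, and AURKA in none.

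The 12 comparisons above share the 3 parental libraries. Lines were therefore also set against each other directly, for 7 pairs that were chosen after the data were seen. Isoform classes follow common HNF4A nomenclature and do not appear in the labels: isoforms 1 to 6 start at promoter P1 and 7 to 12 at promoter P2, isoforms 2, 5, 8 and 11 have a short insertion in the C-terminal domain, and isoforms 3, 6, 9 and 12 have a shortened C-terminus.

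Isoforms 3 and 7 both had more RNA of all 40 genes than isoform 1. For isoform 3, which differs from isoform 1 in its C-terminus, 40 of 40 were higher (27.4% of all genes were higher and 13.8% lower), with a median difference of 0.51 on the log2 scale against 0.06 over all genes. UBE2C was 0.68 ± 0.08 higher (SE, limma adjusted p = 3.9e-08). For isoform 7, the P2 counterpart of isoform 1, 40 of 40 were higher (23.2% higher, 16.8% lower), also with a median of 0.51. FOXM1 was 0.58 higher and TOP2A 0.60 higher. Isoform 2, which has the insertion, had 31 higher than isoform 1 (10.5% higher, 6.97% lower) and none lower, with a median of 0.29. That count was 20 without isoform 1 replicate 1 or without isoform 2 replicate 2. NUF2 was 0.43 and FOXM1 0.41 higher in isoform 2 than in isoform 1.

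Isoform 12 exceeded isoform 10 in 34 of 40 genes (9.96% of all genes were higher and 7.83% lower), with a median difference of 0.31, and the count was 19 without isoform 10 replicate 3, the library of that line with the lowest mean of the 40 genes. UBE2C was 0.41, TOP2A 0.41 and CCNB1 0.32 higher, and ASPM differed by -0.01 (limma adjusted p = 0.96). Isoform 10 was lower than isoform 7 in 14 genes (8.17% lower, 17.4% higher), with a median of -0.18 where the median of all genes was 0.04. The largest of these were MKI67 (-0.45), KIF4A (-0.37) and CDC25C and HMMR (-0.35 each). This count was 7 without isoform 7 replicate 2 and 6 without isoform 10 replicate 3, and 28 under median-of-ratios scaling.

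Isoform 9 exceeded isoform 7 in 6 genes (10.8% higher, 4.69% lower), namely TTK, KIF11, CENPF, HMMR, ECT2 and TOP2A, by 0.18 to 0.33. The count ranged from 0 to 11 with single libraries left out: 0 without isoform 7 replicate 1, 11 without its replicate 2, 1 without its replicate 3, 10 without isoform 9 replicate 1 and 1 without isoform 9 replicate 2 or 3. It was 2 under median-of-ratios scaling, 0 without a filter on low values and 16 with the replicate number as a block. Isoform 6 exceeded isoform 4 in 5 genes (8.14% higher, 3.67% lower): BUB1, NDC80, NUF2, PRC1 and ASPM. ASPM led with a difference of 0.76 ± 0.11 (SE, limma adjusted p = 7.7e-06). Without library a or b of isoform 4, or replicate 2 or 3 of isoform 6, the count was 1, 3, 1 and 2.

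**Figure D5:**
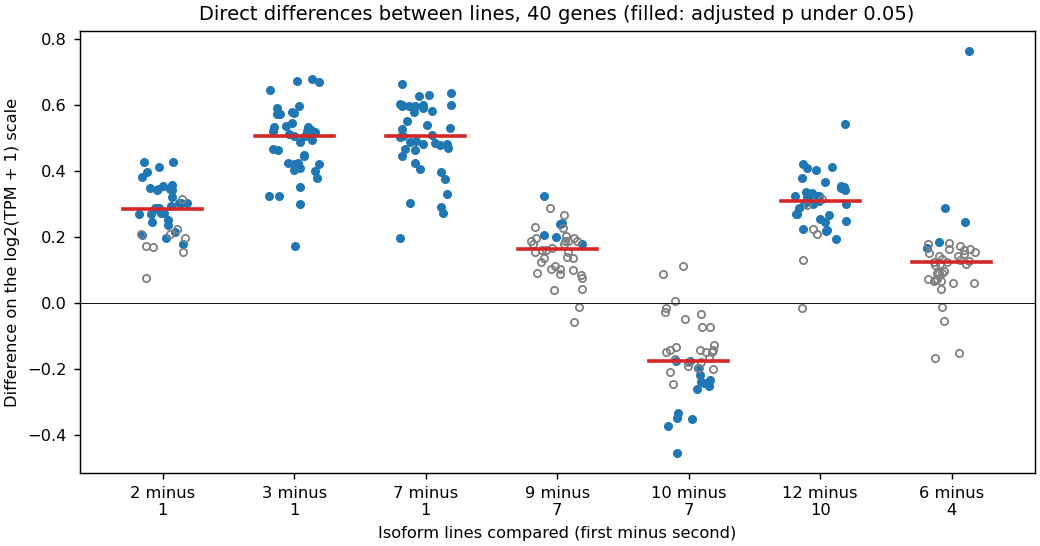
Direct differences between isoform lines on the log2(TPM + 1) scale, 1 point for each of the 40 genes, filled where the limma adjusted p was under 0.05, with the median in red. Isoforms 3 and 7 exceed isoform 1 in all 40 genes (median 0.51 each), isoform 12 exceeds isoform 10 in 34, and isoform 10 lies below isoform 7 in 14.

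With the 12 line means as units, so that the spread is that between lines, isoforms 4-6 exceeded isoforms 1-3 in 34 of the 40 genes (22.1% of all genes were higher and 12.6% lower), with a median of 0.36. TOP2A was 0.55 ± 0.09 higher (SE, limma adjusted p = 0.0029), while AURKA was at -0.14 and did not pass. Isoforms 7-9 exceeded isoforms 1-3 in 26 (6.65% higher, 4.95% lower), with a median of 0.32, and in 16 under median-of-ratios scaling. Leaving out replicate 2 or replicate 3 of the 10 lines whose columns carry a replicate number gave 13 and 17. None of the 40 passed with limma between isoforms 10-12 and 7-9 (0% of all genes passed), with 6 at an unadjusted p under 0.05, against 7.545% of all genes. None passed for the insertion either (0% of all genes), again with 6 at an unadjusted p under 0.05, against 3.026% of all genes. For the shortened C-terminus none passed after adjustment (0% of all genes were higher and 0.0133% lower), at a smallest adjusted p of 0.10. Here 38 of the 40 had an unadjusted p under 0.05, against 18.16% of all genes, and all 40 differences were above 0, with a median of 0.22. The 40 genes tend to move together between libraries, so they are not separate observations of this difference.

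Other genes of the cycle were counted in the same way. Of 60 further G2/M genes, isoforms 1, 2, 10, 11, 7, 3 and 8 had 60, 49, 46, 45, 34, 30 and 22 lower. Of all genes tested, 38.7%, 35.6%, 20.4%, 24.0%, 26.2%, 14.7% and 17.5% fell there. Isoforms 4, 5, 6, 9 and 12 had 14, 7, 2, 8 and 5 lower, where 10.1%, 5.22%, 4.13%, 11.8% and 6.65% of all genes fell. In isoforms 6, 9 and 12 the count was near that share. Of the 60, 3 rose in isoform 9 and 1 in each of isoforms 2, 4, 5, 6, 8 and 12. The largest falls were those of PIMREG, a mitotic regulator, by 1.17, and of the kinesin KIF18A, by 1.16, both in isoform 1. HMGB2, a chromatin protein abundant in dividing cells, rose in isoforms 4, 5, 6 and 12, most in isoform 6, by 0.43, and fell by 0.75 in isoform 1. Of 25 genes of DNA replication and S phase, 25, 23, 25, 24, 23, 13 and 13 fell in isoforms 1, 2, 10, 11, 7, 3 and 8. Their medians were -0.85, -0.56, -0.41, -0.35, -0.28, -0.17 and -0.19, beside -0.71, -0.41, -0.39, -0.28, -0.23, -0.21 and -0.16 for the 40 mitotic genes. In isoforms 4, 5, 6, 9 and 12, 2, 2, 1, 2 and 4 of the 25 fell, against 10.1%, 5.22%, 4.13%, 11.8% and 6.65% of all genes. In isoforms 4, 6 and 9 this was near or below the share over all genes. In isoform 6, 3 of the 25 rose, MCM6 and RFC4 among them, where 5.94% of all genes rose. MCM2, a subunit of the replicative helicase, was at 154.7 TPM ± 2.19 (SD, n = 3) in parental cells and at 69.2 TPM ± 3.44 (SD, n = 3) in isoform 1.

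Among 23 regulators of the programme (DREAM, MuvB and E2F genes), 19 fell and 1 rose in isoform 1, 16 fell and 2 rose in isoform 2, 16 fell and 1 rose in isoform 11, and 14 fell in isoform 10, while none passed in isoforms 6 and 12. Of all genes, 38.7%, 35.6%, 24.0% and 20.4% fell in isoforms 1, 2, 11 and 10, and 19.8%, 19.7%, 14.5% and 17.0% rose. In isoforms 6 and 12, 4.13% and 6.65% of all genes fell and 5.94% and 7.92% rose. In isoforms 7, 8, 3, 9, 4 and 5, in that order, 14, 9, 8, 4, 1 and 1 of the 23 fell. Those that rose there numbered 1, 1, 1, 0, 3 and 0. Of all genes, 26.2%, 17.5%, 14.7%, 11.8%, 10.1% and 5.22% fell there, and 13.4%, 16.9%, 11.2%, 10.9%, 6.26% and 9.57% rose. E2F7, a repressor that is itself a target of the E2F factors, fell from 19.6 TPM ± 1.14 to 8.30 TPM ± 0.82 (SD, n = 3 each) in isoform 1. LIN37, a MuvB subunit, rose there from 15.9 TPM ± 0.79 to 25.97 TPM ± 2.12 (SD, n = 3 each).

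Of 15 genes of G1 and cell cycle exit, 14 were tested, and CDKN1A moved most. It encodes p21, an inhibitor of cyclin-dependent kinases. CDKN1A was at 103.9 TPM ± 3.29 in the parental cells, 341.5 TPM ± 18.7 in isoform 1, 275.6 TPM ± 18.5 in isoform 2 and 226.5 TPM ± 8.60 in isoform 10 (SD, n = 3 each). These were rises of 1.71, 1.40 and 1.12 on the log2 scale. Isoform 11 and isoform 3 followed, with rises of 0.70 and 0.68, then isoforms 7 and 8 with 0.50 and 0.39, and isoforms 5 and 12 with 0.30 each. In isoforms 4, 6 and 9 CDKN1A had log2 fold changes of -0.09, -0.07 and 0.06, which did not pass. The list as a whole went no single way across the lines. In isoform 1, 9 fell and 2 rose (38.7% and 19.8% of all genes). In isoforms 7 and 11, 10 fell in each, and 2 and 1 rose. Of all genes, 26.2% and 24.0% fell there, and 13.4% and 14.5% rose. In isoform 9, 5 fell and 0 rose (11.8% and 10.9% of all genes). In isoforms 2, 3, 4, 6, 8, 10 and 12, in that order, 6, 3, 1, 2, 3, 6 and 2 fell. Those that rose there numbered 3, 1, 3, 3, 2, 4 and 5. Of all genes, 35.6%, 14.7%, 10.1%, 4.13%, 17.5%, 20.4% and 6.65% fell there, and 19.7%, 11.2%, 6.26%, 5.94%, 16.9%, 17.0% and 7.92% rose. In isoform 5, 2 fell and 5 rose (5.22% and 9.57% of all genes). CDKN2B, another inhibitor, fell by 1.35 in isoform 2. Whether any of these changes contributes to the level of the mitotic genes was not tested.

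The submitters ran their own test of each line against the parental cells. By the authors' deposited tables, isoforms 1, 2, 3 and 4 had 39, 38, 32 and 16 lower genes among the 40, where 16.7%, 17.3%, 11.8% and 8.44% of the genes with an adjusted p were lower. Isoforms 5, 6, 7 and 8 had 26, 4, 13 and 20 by the authors' deposited tables (11.2%, 7.03%, 12.9% and 13.4%). Isoforms 9, 10, 11 and 12 had 1, 36, 31 and 10 by the authors' deposited tables (8.29%, 13.8%, 12.9% and 7.09%). The median log2 fold changes of the 40 in the authors' deposited tables were -0.58 in isoform 1, -0.34 in isoform 10 and -0.29 in isoform 2. Counts departed from those found here in isoform 5, with 26 against 9, in isoform 7, with 13 against 27, in isoform 3, with 32 against 23, and in isoform 12, with 10 against 1.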

How the data were processed

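The authors deposited 13 tables, 1 per group, with TPM (transcript abundance scaled to a fixed total per library) for each of 39 libraries. Per the submitters' processing notes, the tools were Trimmomatic 0.36, FastQC 0.11.5, kallisto 0.44.0 and DESeq2 1.22.2, with the genome build GRCh38.p12. Which tool made which values, and the annotation, is not given in the sources used here. Per the file headers, each line's table adds the authors' log2 fold change against the parental cells with its standard error, a p-value, an adjusted p-value, a test score and a mean of normalised counts, the last a signal of depth that summed to between 50609338 and 56136330 per table. These columns entered no fit.

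The 12 HNF4A rows of each table were summed, which left 45435 rows. TPM carry no counts, so log2(TPM + 1) was tested with limma 3.58.1 in R 4.3.3 on the 15003 genes averaging 1 TPM or more, in 1 fit of 13 groups (26 residual degrees of freedom, median residual SD 0.0936), with Benjamini-Hochberg adjustment over all genes tested. A fold change on this scale understates that of low genes. The classes were fitted on the 12 line means (6 residual degrees of freedom). The fits were tested on simulated data with known changes. Columns of isoforms 4 and 5 carry no replicate number and are called libraries a, b and c. Gene coordinates are those of GENCODE v29 (GRCh38).

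The 40 genes and all other lists were chosen with earlier results of these data known, and the 7 line pairs were chosen after the data were seen. The genes named are CCNB1, CDK1, PLK1, TOP2A, MKI67 and FOXM1, the 6 with the widest range of group means, any gene with a change of at least 1 on the log2 scale, up to 3 of the largest changes in a line, from the other lists the largest changes each way, and CDKN1A. Alternatives were another pseudocount (0.1), another filter (5 TPM, or none), median-of-ratios scaling of the TPM, a fit of each line with the parental cells alone, a replicate block, and each library left out. Single results on some genes of the other lists are not reported here.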

Additional observations from a re-analysis of the deposited data

Results flagged for a closer look

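Differences between lines were tested directly, and 9 comparisons had genes of the 40 past the test of the difference itself (limma, adjusted p under 0.05). Isoform 2 differed from isoform 1 in 31 genes, isoform 3 from isoform 1 in 40, and isoform 7 from isoform 1 in 40, all higher than in isoform 1. Of all genes, 10.5%, 27.4% and 23.2% were higher there. Isoform 9 differed from isoform 7 in 6 genes, all higher (10.8% of all genes). Isoform 10 differed from isoform 7 in 14, all lower (8.17%). Isoform 12 differed from isoform 10 in 34 genes and isoform 6 from isoform 4 in 5, all higher (9.96% and 8.14%). The counts of 6 and 5 were near the share over all genes. With single libraries left out they ranged from 0 to 11 and from 1 to 6. Over line means, isoforms 4-6 differed from isoforms 1-3 in 34 genes and isoforms 7-9 from isoforms 1-3 in 26, all higher (22.1% and 6.65% of all genes).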

How the results depend on the processing

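No gene value past the test in a comparison changed direction and stayed past the test under any alternative run, and of 480 gene values against the parental cells 479 kept their call with a pseudocount of 0.1, 475 with a filter of 5 TPM, 445 without a filter and 434 under median-of-ratios scaling, which moved the median of all genes by at most 0.10. Counts of the 40 genes past the test moved by over 1.5 times as follows. Median-of-ratios scaling gave 15, 2, 17, 1 and 2 in isoforms 5, 6, 7, 9 and 12, and for the differences between lines 2 (9 minus 7), 28 (10 minus 7) and 16 (isoforms 7-9 minus 1-3). Without a filter the counts were 8, 2 and 8 in isoforms 4, 5 and 8, and 0 (9 minus 7) and 2 (6 minus 4). A fit of the line and the parental cells alone gave 15, 18, 1 and 4 in isoforms 3, 5, 6 and 12. The cause was not tested. With single libraries left out, the counts in isoforms 1 to 12 ranged, in that order, from 39 to 39, 37 to 38, 8 to 29, 4 to 15, 0 to 6, 0 to 1, 15 to 28, 6 to 13, 0 to 0, 31 to 36, 25 to 36 and 0 to 1. For the pairs they ranged from 20 to 34 (2 minus 1), 38 to 40 (3 minus 1 and 7 minus 1), 0 to 11 (9 minus 7), 6 to 20 (10 minus 7), 19 to 37 (12 minus 10) and 1 to 6 (6 minus 4), and for the classes from 29 to 37 (4-6 minus 1-3) and 13 to 33 (7-9 minus 1-3). Where a line kept 2 libraries, the fit takes their spread to be like that of the other groups.

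Same-numbered libraries of a line and the parental cells did not deviate together in every pair. Correlations ranged from -0.047 to 0.187 and were over 0.1 for all 3 numbers in 0 of 10 lines. This check cannot exclude pairing for the mitotic genes. Their library mean was highest in replicate 2 in the parental cells (6.433, 6.532 and 6.482). The same held in isoforms 1, 2, 6, 7, 9, 10, 11 and 12, but not in isoforms 3 and 8. Of 400 gene values against the parental cells, the replicate block gained 26 calls and lost 1. A shared replicate effect was not tested. With the replicate block the counts were 39, 38, 31, 32, 22, 36 and 35 in isoforms 1, 2, 3, 7, 8, 10 and 11. Isoforms 6, 9 and 12 then had 2, 1 and 2, and the pairs 16 (9 minus 7) and 22 (10 minus 7). No paired analysis was possible for isoforms 4 and 5 because their columns carry no replicate number, nor for the classes, whose units are line means. TPM hold no depth, so its limit on these values is unknown.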
